A study of Saccharomyces cerevisiae with 15 samples.

Results

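The effect of deleting *PDR3* was followed across all genes in yeast cells that overexpressed the presequence of the mitochondrial protein Mge1. Of the 15 libraries of the series, 6 belong to this comparison, 3 from *pdr3*Δ cells and 3 from cells with *PDR3*. Both strains are haploid MATa cells of the W303 background with the ade2-1, leu2-3, ura3, trp1-1 and his3-11,15 alleles. Both carry a 2-micron plasmid, marked with *URA3*, on which a galactose promoter drives the presequence fused to mCherry (MTSMge1). The *pdr3*Δ strain also has its *PDR3* locus replaced by *HIS3*, and both strains keep the paralog *PDR1*. These genotypes are from the study's strain list. The sample labels name the induced presequence but give an empty 2-micron plasmid as the genotype, and the medium is rich (YPR) in the labels and synthetic in the study's methods, with raffinose in both. Which medium was used could not be settled here. Cells were induced with 1% galactose for 4 hours. The design text calls the cultures biological replicates, and whether a strain was more than 1 clone was not stated. *PDR3* itself and the marker *HIS3* were left out of every count, since the strain construction sets them. The remaining genes were not chosen by any measured value. Of the 7127 genes in the table, 6182 passed the filter on low counts and were tested.

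Pdr3 is a zinc cluster transcription factor that, together with Pdr1, activates the pleiotropic drug resistance network through short GC-rich sites known as PDREs. Its known targets are ATP-binding cassette (ABC) pumps of the plasma membrane and enzymes of sphingolipid and phospholipid metabolism. When mitochondrial protein import is impaired, Pdr3 also drives the mitoCPR, in which *CIS1* recruits the membrane ATPase Msp1 to clear stalled precursors from the mitochondrial surface.

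*PDR3* and *HIS3* went with the labels in each library. *PDR3* had 0, 0.102 and 0.0869 CPM (reads scaled to a common library size by TMM) in *pdr3*Δ cells, against 288, 314 and 298 CPM in wild-type cells, and *HIS3* had 124, 115.03 and 128 CPM in *pdr3*Δ cells against 43.8, 45.2 and 46.02 CPM in wild-type cells. The presequence construct left similar counts on *MGE1*, with 7619, 8383 and 8371 CPM in *pdr3*Δ cells and 7202, 7677 and 8053 CPM in wild-type cells, and *GAL1*, the galactokinase, had 7933, 7817 and 8413 CPM in *pdr3*Δ cells and 8009, 8844 and 8255 CPM in wild-type cells. Reads on *MGE1* can come from both the chromosomal gene and the plasmid. Of the 10 galactose regulon genes, *GAL1* among them, 10 had lower means in *pdr3*Δ cells, with a median log2 fold change of -0.15. Without the replicate number as a block, 0 passed the edgeR test. With it 2, *GAL3* and *GAL7*, were lower (20%, against 3.53% over all genes). At an unadjusted p under 0.05, 1 was lower without the block and 7 with it. The a-cell genes *STE2* and *STE6* were expressed in all 6 libraries. The alpha-cell gene *SAG1* was too, with 91.2, 86.9 and 82.7 CPM in *pdr3*Δ cells and 81.9, 69.8 and 82.4 CPM in wild-type cells. The alpha-factor gene *MF(ALPHA)1* had 3.75, 8.67 and 2.78 CPM in *pdr3*Δ cells and 27.0, 8.92 and 4.13 CPM in wild-type cells. The mating type is therefore given from the strain list alone. None of the 17 tested mating markers or the 8 tested neighbours of *PDR3* and *HIS3* passed the edgeR test with or without the replicate number as a block. At an unadjusted p under 0.05, 0 of either list passed without the block, and with it 3 mating markers were lower, 1 neighbour was lower and 3 neighbours were higher. DESeq2 called 0 of either list. Total counts ran from 9128344 to 15326370 per library. The second *pdr3*Δ library stood apart in a set of stress genes. *HSP26*, a small heat shock protein, had 37.5, 207 and 9.74 CPM in the 3 *pdr3*Δ libraries, against 61.8, 31.6 and 18.8 CPM in wild type, and *CTT1*, the cytosolic catalase, had 48.4, 133 and 11.4 CPM in *pdr3*Δ cells against 48.6, 56.1 and 21.8 CPM in wild-type cells.

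Most genes that passed were lower in *pdr3*Δ cells. By edgeR's quasi-likelihood test with Benjamini-Hochberg adjustment, 32 genes were lower by at least 2-fold in *pdr3*Δ cells at an adjusted p of 0.05 or less (0.518% of genes tested), and 1 was higher (0.0162%). Without the fold threshold, 40 genes were lower (0.647%) and 3 were higher (0.0485%). Deviations from the group means correlated most between the replicate 3 libraries (r = 0.576). Numbers 1 and 2 were not clearly told apart, with r of 0.232 and 0.365 for the same number and 0.268 and 0.105 across them. The number was also fitted as a block, which therefore rests mainly on replicate 3 as a pairing. With the block, 49 genes were lower by 2-fold (0.793%) and 1 was higher (0.0162%), while 218 were lower (3.53%) and 150 were higher (2.43%) on the adjusted p alone. Without the replicate 1, 2 or 3 pair, the block gave 163, 428 and 267 genes lower and 68, 455 and 155 genes higher, so both counts, and the higher one most, rest on which pair is in the fit. A block fit without a pair has very few libraries left to measure the spread. This limits all such counts given below. In bulk libraries, fewer responding cells and less RNA per cell cannot be told apart.

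The study's list of 35 genes induced by MTSMge1 holds *PDR3* and 34 genes tested here. The study picked that list partly from the wild-type libraries compared here, so its direction is not independent evidence. All 34 had lower means in *pdr3*Δ cells, with a median log2 fold change of -1.66, against 0.00 over all genes tested. Of them, 30 passed the test without the block and 34 with it, beside the 0.647% and 3.53% of genes tested given above.

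Outside the ABC pumps, the list holds genes of mixed function. *CIS1*, the mitoCPR factor named above, had a log2 fold change of -7.43 ± 0.28 (SE of the fit without the block, as after each later value of this kind), and the uncharacterized *YGR035C* -6.65 ± 0.20. *GRE2*, a methylglyoxal reductase, had 23.5, 26.3 and 9.56 CPM in *pdr3*Δ cells, against 412, 379 and 277 CPM in wild-type cells (-4.17 ± 0.37), and *ARI1*, an aldehyde reductase of the same family, had 23.2, 27.6 and 18.3 CPM in *pdr3*Δ cells, against 156, 167 and 152 CPM in wild-type cells (-2.78 ± 0.15). The 3 *pdr3*Δ libraries lay far under the wild-type ones for both reductases. Of 26 genes of the *GRE2* family and aldo-keto reductases, 4 were lower and 0 higher without the block, and 5 were lower and 1 higher with it, with a list median of -0.16 (list medians are of the fit without the block). The share lower with the block was 19.2%, against 3.53% over all genes, and without the replicate 2 pair 9 were lower. *ATG40*, the receptor for autophagy of the endoplasmic reticulum, had 19.2, 19.2 and 11.1 CPM in *pdr3*Δ cells, against 56.4, 58.4 and 56.1 CPM in wild-type cells (-1.79 ± 0.20). The members called at 2-fold without the block and not described elsewhere were *YHR140W* (-3.22 ± 0.38), *LAF1* (-3.03 ± 0.16), *RTS3* (-1.71 ± 0.24), *TVS1* (-1.57 ± 0.14), *IML2* (-1.52 ± 0.21), *ICY1* (-1.46 ± 0.22), *PUG1* (-1.43 ± 0.23) and *OSI1* (-1.20 ± 0.15).

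Drug efflux pumps were among the most strongly lowered genes. *PDR5*, the main multidrug pump of the plasma membrane, had 170.3, 191 and 177 CPM in *pdr3*Δ cells, against 4539.6, 4969 and 5164 CPM in wild-type cells. The groups lay far apart, with a log2 fold change of -4.77 ± 0.13 and an adjusted p of 3.64e-06. Its close relative *PDR15* had 54.2, 60.4 and 45.2 CPM in *pdr3*Δ cells and 768, 904 and 832 CPM in wild-type cells (-3.97 ± 0.15). *YOR1*, an ABC exporter of oligomycin, had 84.8, 89.8 and 60.6 CPM in *pdr3*Δ cells against 339.6, 377 and 315 CPM in wild-type cells (-2.13 ± 0.16). For both pumps the highest *pdr3*Δ library was well under the lowest wild-type one. *SNQ2*, which exports mutagens, was less affected, with 115.21, 128 and 129 CPM in *pdr3*Δ cells and 269.8, 319.7 and 330.4 CPM in wild-type cells (-1.31 ± 0.11).

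These 4 were the only members called among the 14 ABC transporters tested, in both fits. They were 28.6% of the list, against 0.647% of all genes lower without the block and 3.53% with it. *PDR10*, another close relative of *PDR5*, had 47.1, 47.5 and 42.3 CPM in *pdr3*Δ cells and 41.6, 46.8 and 42.2 CPM in wild-type cells, with overlapping groups (0.07 ± 0.09). *PDR12*, the pump for weak organic acids, had a log2 fold change of -0.13 ± 0.21, the sterol importers *AUS1* and *PDR11* -0.08 ± 0.11 and -0.12 ± 0.10, and the vacuolar pump *YCF1* 0.00 ± 0.08. *PDR18* was under the filter, at 0.408, 0.714 and 0.261 CPM in *pdr3*Δ cells and 2.26, 1.04 and 0.599 CPM in wild-type cells. Among 17 transporters of the major facilitator family, none passed without the block, where 1 was lower and 1 higher at an unadjusted p under 0.05 and DESeq2 called 1. With it, the polyamine exporters *TPO4* and *TPO1* were lower (-0.66 ± 0.31 and -0.58 ± 0.10) and *QDR2* was higher (0.42 ± 0.14), with adjusted p of 0.00435, 0.00644 and 0.0261. These were 11.8% and 5.88% of the list, against 3.53% and 2.43% over all genes.

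The PDREs of these pumps are shown because the same letters recur in genes described further on. The stretches are 100 bases each from the RefSeq R64 genome, read 5′ to 3′ on the strand of the gene, with octamers searched on both strands in capitals.
PDR5: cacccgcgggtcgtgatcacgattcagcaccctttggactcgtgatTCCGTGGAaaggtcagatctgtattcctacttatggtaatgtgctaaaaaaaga
PDR15: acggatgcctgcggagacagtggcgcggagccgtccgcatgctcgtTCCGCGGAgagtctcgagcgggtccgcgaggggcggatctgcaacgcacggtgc
YOR1: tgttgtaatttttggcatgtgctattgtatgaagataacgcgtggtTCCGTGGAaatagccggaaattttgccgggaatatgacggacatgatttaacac
SNQ2: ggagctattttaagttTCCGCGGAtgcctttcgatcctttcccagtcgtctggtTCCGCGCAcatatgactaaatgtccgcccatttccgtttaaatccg
They lie at chrXV:619419-619518 (+ strand) for *PDR5*, chrIV:1278785-1278884 (+ strand) for *PDR15*, chrVII:1052377-1052476 (+ strand) for *YOR1* and chrIV:465319-465418 (+ strand) for *SNQ2*. The window of *PDR5* holds 4 octamers, 2 each of TCCGCGGA and TCCGTGGA, of which the stretch shows 1. The windows of *PDR15* and *YOR1* hold 1 each, and both octamers of the *SNQ2* window are in its stretch.

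Regulators of the network themselves moved little. *PDR1* had 95.5, 107 and 102 CPM in *pdr3*Δ cells and 104.64, 111 and 110.2 CPM in wild-type cells (-0.10 ± 0.08), with overlapping groups. Of 13 regulators tested none passed without the block, 1 was lower at an unadjusted p under 0.05, and DESeq2 called 1. That gene was *RPN4*, the transcription factor of proteasome genes, at 78.8, 86.7 and 84.8 CPM in *pdr3*Δ cells and 129, 134 and 106 CPM in wild-type cells. All 3 *pdr3*Δ libraries were below the wild-type ones, and *RPN4* passed with the block (-0.56 ± 0.11, adjusted p = 0.00435, against 0.114 without it). The other members of the list of proteasome subunits and *RPN4*, 42 genes in all, did not pass in either fit.

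Sphingolipid genes fell as a small group within a larger list. Of 31 genes tested, 4 were lower without the block and 8 with it (25.8%, against 3.53% over all genes). In both fits 0 were higher, and the list median was -0.06. *RSB1*, a membrane protein that confers resistance to sphingoid long-chain bases, had 34.02, 38.9 and 36.0 CPM in *pdr3*Δ cells, against 158, 177 and 169.8 CPM in wild-type cells (-2.21 ± 0.09). *SCS7*, the hydroxylase of the very long fatty acid of ceramide, had 159, 189 and 158 CPM in *pdr3*Δ cells against 669, 703 and 764 CPM in wild-type cells (-2.08 ± 0.11). The groups were widely separated for both genes. *LAC1*, a ceramide synthase subunit, had 50.5, 52.4 and 54.4 CPM in *pdr3*Δ cells and 106, 119 and 120.3 CPM in wild-type cells (-1.14 ± 0.08). Its paralog *LAG1* had 132, 113 and 126 CPM in *pdr3*Δ cells and 111, 116 and 122 CPM in wild-type cells, and those groups overlapped (0.09 ± 0.09).

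*IPT1*, which makes the final complex sphingolipid M(IP)2C, is outside the study's list. It had 145, 154 and 154 CPM in *pdr3*Δ cells and 238, 238 and 272 CPM in wild-type cells, with no overlap (-0.73 ± 0.09, adjusted p = 0.0125). The other 4 members that passed with the block were the ceramidases *YPC1* (-0.44 ± 0.31) and *YDC1* (-0.37 ± 0.23), the regulator *ORM2* (-0.41 ± 0.24) and the ketoreductase *IFA38* (-0.25 ± 0.08). The first 3 of these had overlapping groups, and all 3 were lower in *pdr3*Δ cells in each pair of the same replicate number.

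Phospholipid and sterol genes gave few calls. *ICT1*, a lysophosphatidic acid acyltransferase, had 54.1, 77.2 and 53.5 CPM in *pdr3*Δ cells and 436, 441 and 419 CPM in wild-type cells (-2.81 ± 0.16), and *PDR16*, a phosphatidylinositol transfer protein, had 112, 96.9 and 106 CPM in *pdr3*Δ cells and 356, 355 and 364 CPM in wild-type cells (-1.77 ± 0.09). These 2 of 35 phospholipid genes passed without the block, where 0.647% of all genes were lower. With the block 3 of the 35 were lower (8.57%, against 3.53% over all genes). *INO1*, inositol phosphate synthase, was the gene that joined *ICT1* and *PDR16* with the block (-1.21 ± 0.76, adjusted p = 0.000881). Its levels ran widely within each strain, at 1407, 951 and 271 CPM in *pdr3*Δ cells and 2899, 2751 and 447 CPM in wild-type cells, and the third library was low in both. Without the replicate 3 pair, 7 phospholipid genes were lower with the block. *ARE2*, which esterifies sterols for storage, was the only one of 31 ergosterol genes to pass without the block (-1.18 ± 0.10). With the block *ARE2* and *ERG12* (-0.33 ± 0.09) were lower (6.45%, against 3.53% over all genes). *ERG11* (0.22 ± 0.15), *ERG25* (0.25 ± 0.18) and *CYB5* (0.43 ± 0.15) were higher (9.68%, against 2.43% over all genes), with 20 of the 31 means higher and a list median of 0.10. In the list 1, 6 and 1 were higher without the replicate 1, 2 or 3 pair.

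Outside the study's list, 10 genes were lower and 3 were higher without the block. In each case the 3 *pdr3*Δ libraries did not overlap the wild-type ones. The genes were chosen by a test on these same 6 libraries, so this separation largely follows from the choice and adds no support. Over all genes tested, 6.31% had no overlap in the lower direction and 4.45% in the higher.

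**Figure D1:**
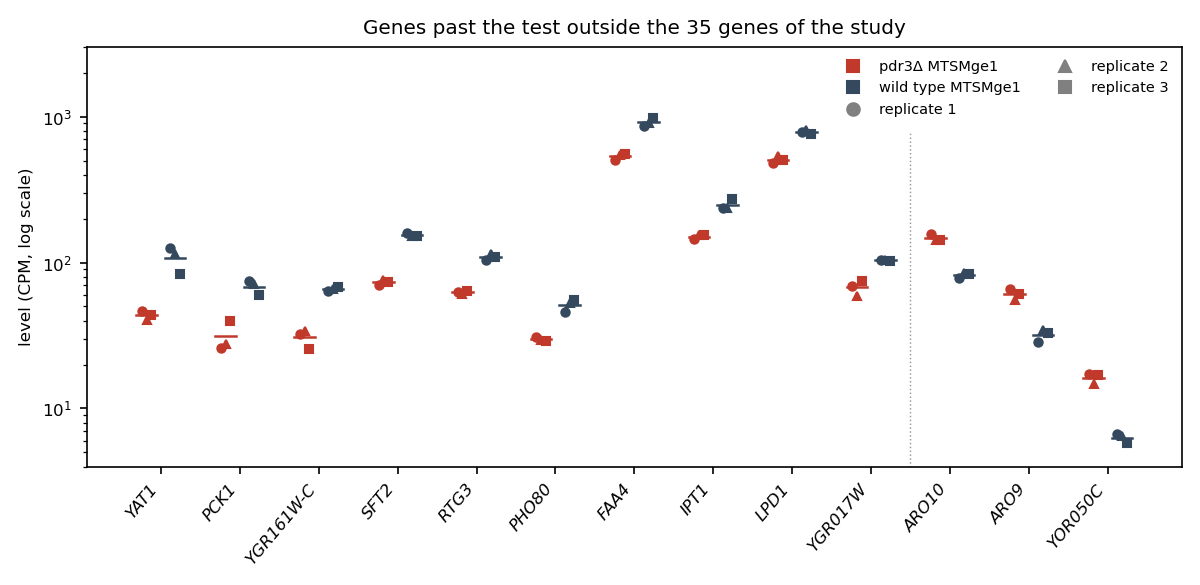
Levels in CPM on a log axis of the 13 genes outside the study's list that passed the test without the block. Each point is a library, red for *pdr3*Δ cells and blue for wild-type cells, with bars at the means; the 10 genes left of the dotted line were lower and the 3 right of it were higher, and no gene has overlapping groups.

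Of the 10 lower genes, 4 are members of the carbon metabolism and retrograde response lists. *YAT1*, the carnitine acetyltransferase of the outer mitochondrial membrane, had 46.7, 40.2 and 43.5 CPM in *pdr3*Δ cells, against 125, 114 and 82.9 CPM in wild-type cells (-1.30 ± 0.16, adjusted p = 0.0107). *PCK1*, phosphoenolpyruvate carboxykinase of gluconeogenesis, had 25.9, 27.6 and 40.0 CPM in *pdr3*Δ cells against 74.4, 71.1 and 59.7 CPM in wild-type cells (-1.13 ± 0.18, adjusted p = 0.0463). *LPD1*, the dihydrolipoamide dehydrogenase shared by pyruvate and 2-oxoglutarate dehydrogenases, had 482, 534 and 505 CPM in *pdr3*Δ cells and 789, 807 and 759 CPM in wild-type cells (-0.63 ± 0.09). *RTG3*, a transcription factor of the retrograde response from mitochondria to nucleus, had 62.7, 60.6 and 64.2 CPM in *pdr3*Δ cells and 103, 114 and 109 CPM in wild-type cells (-0.80 ± 0.08). Its libraries differed little within each strain, while its partner *RTG1* had 44.9, 45.7 and 45.8 CPM in *pdr3*Δ cells and 43.2, 45.6 and 42.3 CPM in wild-type cells (0.06 ± 0.08). With 1 library left out at a time, *RTG3* passed in 6 of 6 fits, *YAT1* in 3, *PCK1* in 2 and *LPD1* in 0.

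The others touch traffic, lipids and phosphate. *SFT2*, a Golgi membrane protein of vesicle fusion, had 70.3, 76.1 and 73.7 CPM in *pdr3*Δ cells, against 159, 152 and 152 CPM in wild-type cells (-1.07 ± 0.07, adjusted p = 0.000484). *FAA4*, a long-chain fatty acyl-CoA synthetase, had 501, 548 and 555 CPM in *pdr3*Δ cells and 863, 905 and 973 CPM in wild-type cells (-0.77 ± 0.10). *PHO80*, the cyclin that restrains the phosphate response, had 30.9, 29.4 and 29.1 CPM in *pdr3*Δ cells and 45.8, 52.8 and 55.5 CPM in wild-type cells (-0.79 ± 0.10). None of the 27 phosphate response genes was lower in either fit, and at an unadjusted p under 0.05 the counts lower were 0 without the block and 1 with it. With the block 2 of the 27 were higher (7.41%, against 2.43% over all genes), the phosphate transporter *PHO90* (0.36 ± 0.18) and *PHO3*. The uncharacterized YGR161W-C had 32.6, 34.1 and 25.7 CPM in *pdr3*Δ cells and 63.8, 65.6 and 68.2 CPM in wild-type cells (-1.10 ± 0.12), and *YGR017W* had 68.9, 58.7 and 74.7 CPM in *pdr3*Δ cells and 104.64, 104.84 and 103 CPM in wild-type cells (-0.63 ± 0.10). *SFT2* and YGR161W-C passed in 6 of 6 fits with a library left out, *FAA4* and *PHO80* in 2, *IPT1* in 2 and *YGR017W* in 1.

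The 3 genes higher in *pdr3*Δ cells without the block included *ARO9* and *ARO10* of aromatic amino acid breakdown. *ARO9*, the aromatic aminotransferase, had 65.9, 55.1 and 60.9 CPM in *pdr3*Δ cells, against 28.6, 34.6 and 32.8 CPM in wild-type cells (0.92 ± 0.11, adjusted p = 0.0107). *ARO10*, the decarboxylase that acts next in the Ehrlich pathway, had 157, 142 and 144 CPM in *pdr3*Δ cells against 78.0, 84.4 and 83.1 CPM in wild-type cells (0.85 ± 0.08, adjusted p = 0.00282). With 1 library left out at a time, *ARO10* passed in 6 of 6 fits and *ARO9* in 4. The other gene was *YOR050C*, at 17.3, 14.7 and 16.9 CPM in *pdr3*Δ cells and 6.67, 6.45 and 5.79 CPM in wild-type cells (1.37 ± 0.15), which passed in 5. This open reading frame is absent from the RefSeq annotation, and its systematic name places it beside YOR049C, which is *RSB1*. Whether reads of one can be counted on the other was not tested, since the strand setting of the counting was not stated.

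With the block, a broad set of genes for growth on poor carbon sources was lower in *pdr3*Δ cells. Of 25 genes of gluconeogenesis, the glyoxylate cycle and carnitine transport, 11 were lower and 0 were higher with the block. The share lower was 44% of the list, against 3.53% over all genes. Without the block, 2 were lower and 0 were higher. The list median was -0.39. The counts lower were 9, 11 and 16 without the replicate 1, 2 or 3 pair. DESeq2 with the block called 8 of the 18 members to which it gave an adjusted p. *MLS1*, malate synthase, had 40.3, 54.8 and 38.7 CPM in *pdr3*Δ cells and 159, 132 and 52.0 CPM in wild-type cells (-1.36 ± 0.38, adjusted p = 0.0154 with the block). The third wild-type library was far below the other wild-type libraries and close to the *pdr3*Δ ones. *ICL1*, isocitrate lyase, had 239, 225 and 231 CPM in *pdr3*Δ cells against 468, 433 and 277 CPM in wild-type cells (-0.76 ± 0.19), and *ALD6*, the cytosolic acetaldehyde dehydrogenase, had 448, 305 and 254 CPM in *pdr3*Δ cells against 761, 782 and 539 CPM in wild-type cells (-1.05 ± 0.24). Neither gene had overlapping groups. The remaining members called were *YAT1*, *PCK1*, the acetate transporter *ADY2* (-0.78 ± 0.22), *IDP2* (-0.77 ± 0.23), *CAT2* (-0.58 ± 0.27), *ACS1* (-0.53 ± 0.18), *MDH2* (-0.50 ± 0.16) and *ALD4* (-0.24 ± 0.32).

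Genes of the tricarboxylic acid cycle were also lower with the block. Of 28 genes of the cycle and of the retrograde response, 10 were lower and 0 were higher with the block. The share lower was 35.7% of the list, against 3.53% over all genes. Without the block, 2 were lower and 0 were higher, and the list median was -0.24. Without the replicate 1, 2 or 3 pair, 6, 18 and 12 were lower, and 1 was higher without the replicate 2 pair. *CIT2*, the peroxisomal citrate synthase and classic target of *RTG3*, had 372, 520.2 and 207 CPM in *pdr3*Δ cells and 767, 788 and 299 CPM in wild-type cells (-0.75 ± 0.43, adjusted p = 0.00279 with the block and 0.862 without). The third library was the lowest of both strains, and *pdr3*Δ cells were lower in each pair of the same number. *CIT1* (-0.43 ± 0.26), *ACO1* (-0.25 ± 0.13), *IDH1* (-0.29 ± 0.13), *IDH2* (-0.24 ± 0.12) and *LSC2* (-0.26 ± 0.14), which encode enzymes of the cycle itself, passed with the block. Of 42 nuclear genes of oxidative phosphorylation, 2 were lower (4.76%, against 3.53% over all genes) and 1 was higher with the block. With the block 22 were lower at an unadjusted p under 0.05, against 713 of all 6182 genes tested. Of the 42, 38 had lower means and 19 had no overlap between strains in the lower direction (6.31% over all genes), with a median of -0.13. The counts lower were 0, 11 and 3 without the replicate 1, 2 or 3 pair.

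**Figure D2:**
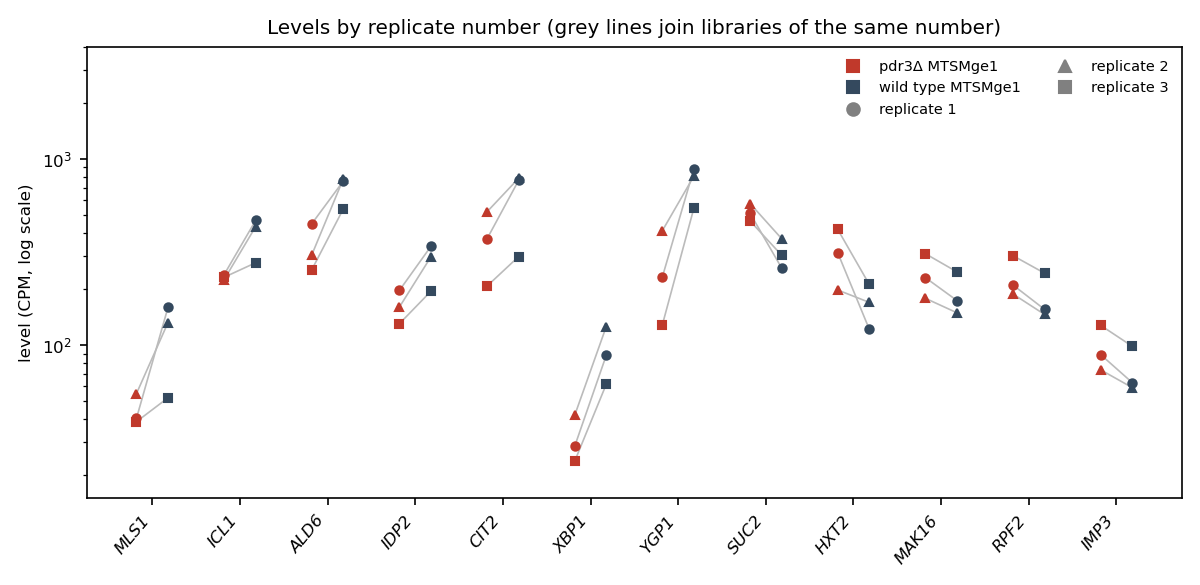
Levels in CPM on a log axis of 12 genes, with grey lines joining the *pdr3*Δ (red) and wild-type (blue) libraries of the same replicate number. *MLS1* and *CIT2* show the low replicate 3 wild-type library, at 52.0 and 299 CPM, and the lines of *MAK16*, *RPF2* and *IMP3* fall slightly toward wild type in every pair.

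*XBP1*, *YGP1* and *SPO24* were lower by more than 2-fold with the block. *XBP1*, a repressor of transcription made under stress and starvation, had 28.6, 41.9 and 23.7 CPM in *pdr3*Δ cells and 88.1, 126 and 61.5 CPM in wild-type cells (-1.55 ± 0.30, adjusted p = 6.59e-06 with the block and 0.114 without). *YGP1*, a secreted glycoprotein of nutrient limitation, had 232, 412 and 128 CPM in *pdr3*Δ cells against 886, 810.0 and 545 CPM in wild-type cells (-1.54 ± 0.40, adjusted p = 0.000749 and 0.453). *SPO24*, a small protein of sporulation, had 609.9, 591 and 366 CPM in *pdr3*Δ cells against 1435, 1452 and 942 CPM in wild-type cells (-1.29 ± 0.24, adjusted p = 6.39e-07 and 0.112). None of these genes had overlapping groups. With the block *GAC1*, which targets the phosphatase Glc7 to glycogen synthase, was lower (-1.13 ± 0.22), and the trehalose enzymes *TSL1* (-0.56 ± 0.53), *TPS2* (-0.42 ± 0.20), *TPS1* (-0.35 ± 0.36) and *TPS3* (-0.24 ± 0.19) were the other members called among 19 trehalose and glycogen genes. That is 26.3% of the list, against 3.53% over all genes lower with the block. *MPC3*, the respiratory subunit of the mitochondrial pyruvate carrier (-1.14 ± 0.33), and the kinase *TDA1* (-0.99 ± 0.24) passed edgeR's test with the block and not without it.

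The general stress list was less uniform. With the block 9 of 38 genes were lower (23.7%, against 3.53% over all genes), among them *XBP1* and *YGP1*, and 0 were higher. The median was -0.13 with the block and -0.07 without it. Without the replicate 2 pair, which holds the *pdr3*Δ library high in *HSP26* and *CTT1*, 17 were lower and 0 were higher, with a median of -0.38. Without the replicate 3 pair, 8 were lower and 6 were higher, with a median of -0.03. The part of the second *pdr3*Δ library in this result was not tested further.

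Sugar use changed in both directions. *MIG2*, a glucose repressor of the study's list, had 22.6, 26.7 and 19.6 CPM in *pdr3*Δ cells and 78.3, 70.2 and 71.1 CPM in wild-type cells (-1.67 ± 0.13), while *MIG1* had 146, 142 and 127 CPM in *pdr3*Δ cells and 126, 123.48 and 122.67 CPM in wild-type cells (0.16 ± 0.08). Of these only *MIG2* passed. *SUC2*, the secreted invertase and a textbook target of glucose repression, had 511, 576 and 465 CPM in *pdr3*Δ cells, against 259.6, 373 and 304 CPM in wild-type cells. All 3 *pdr3*Δ libraries were higher, and *SUC2* passed with the block (0.73 ± 0.15, adjusted p = 0.000823) but not without it (0.185). The maltases *MAL12* (0.56 ± 0.14) and *MAL32* (0.40 ± 0.11) were also higher with the block, whereas the isomaltases *IMA5* (-1.64 ± 0.13), *IMA2* (-0.63 ± 0.17), *IMA3* (-0.62 ± 0.20) and *IMA4* (-0.62 ± 0.20) were lower. Of the 14 genes of this list, 28.6% were lower and 21.4% higher with the block, against 3.53% and 2.43% over all genes. Without the replicate 1 pair, 2 were lower and 3 higher. DESeq2 with the block gave these 4 isomaltases no adjusted p. Reads of *MAL12* and *MAL32* cannot be fully told apart, since 80.4% and 80.8% of their 59-base stretches recur in the genome, and *IMA3* and *IMA4* share 100% and *IMA2* 53.4%. Among hexose transporters, *HXT4* was lower (-0.58 ± 0.22). *HXT2* (0.89 ± 0.30) was higher, as were *HXT6* (0.46 ± 0.18) and *HXT7* (0.49 ± 0.17), of which 95% of such stretches recur. Of 29 hexose transporter and glucose repression genes, 4 were lower and 3 higher with the block, and 7 and 4 without the replicate 2 pair. The shares with all pairs were 13.8% and 10.3%, against 3.53% and 2.43% over all genes.

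Vitamin and amino acid genes gave scattered calls. *VHR1*, the activator of biotin uptake, had 85.9, 88.6 and 96.8 CPM in *pdr3*Δ cells and 248, 273 and 245 CPM in wild-type cells (-1.50 ± 0.09), and its known target *VHT1*, the biotin transporter, had 2409.9, 1832 and 1638 CPM in *pdr3*Δ cells and 2116, 2112 and 1447 CPM in wild-type cells. *VHT1* had overlapping groups (0.05 ± 0.20). *BPL1*, the biotin protein ligase (-0.74 ± 0.21), and *BNA2*, the first enzyme of NAD synthesis from tryptophan (-1.37 ± 0.51), were lower with the block. Of 40 vitamin genes, 6 were lower and 1 higher with the block (15% and 2.5%, against 3.53% and 2.43% over all genes). Without the replicate 1, 2 or 3 pair, 6, 13 and 11 were lower. Of 66 amino acid genes, 3 were lower and 7 were higher with the block, with *ARO9* and *ARO10* among the 7, and the median was 0.06. These were 4.55% and 10.6% of the list, against 3.53% and 2.43% over all genes. Without the replicate 2 pair, 3 were lower and 13 were higher.

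Genes of ribosome production had higher means in *pdr3*Δ cells almost throughout. Of 132 ribosome biogenesis genes, 131 had higher means in *pdr3*Δ cells (3122 of 6182 over all genes tested), with a median log2 fold change of 0.20. The strains were without overlap in the higher direction for 0 of the 132, against 4.45% over all genes. With the block 34 were higher and 0 lower (25.8%, against 2.43% over all genes). None passed without the block, where 0 were lower and 0 higher at an adjusted p of 0.05 by edgeR and also by DESeq2, and 0 were higher at an unadjusted p under 0.05. Without the replicate 1, 2 or 3 pair, 12, 71 and 21 were higher. *MAK16*, a factor of large subunit assembly, had 230.3, 178 and 309.6 CPM in *pdr3*Δ cells and 173, 149 and 247 CPM in wild-type cells (0.33 ± 0.25), *RPF2* had 210.1, 188 and 302 CPM in *pdr3*Δ cells and 155, 146 and 243 CPM in wild-type cells (0.36 ± 0.25) and *IMP3*, of the small subunit processome, had 88.8, 73.5 and 128 CPM in *pdr3*Δ cells and 62.8, 59.03 and 98.4 CPM in wild-type cells (0.39 ± 0.26). The strains overlapped for all 3 genes, and within each pair of the same number the *pdr3*Δ library was higher. Of 138 cytosolic ribosomal protein genes, 132 had higher means, with a median of 0.16, and 1 had no overlap in the higher direction. With the block 10 were higher (7.25%, against 2.43% over all genes). Without the replicate 1, 2 or 3 pair these were 1, 99 and 3. Scaling by total library size left 21 biogenesis genes higher with the block and a median of 0.19.

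Other genes higher with the block were spread over functions. *YDR133C*, absent from the RefSeq annotation, had 584, 487 and 738 CPM in *pdr3*Δ cells and 291, 303 and 423 CPM in wild-type cells (0.83 ± 0.20). *PHO3*, an acid phosphatase regulated by thiamine, had 133, 128 and 187 CPM in *pdr3*Δ cells against 98.5, 76.5 and 119 CPM in wild-type cells (0.61 ± 0.20), and *PLB2*, a phospholipase B, had 111, 108 and 131 CPM in *pdr3*Δ cells against 66.9, 68.4 and 97.2 CPM in wild-type cells (0.59 ± 0.16). These 3 had no overlap between strains. *MCH5*, the riboflavin transporter (0.52 ± 0.23), *SAM1*, an S-adenosylmethionine synthetase (0.66 ± 0.31), and the mating type endonuclease *HO* (0.40 ± 0.24) overlapped between strains. Among 28 cell cycle genes, *HO* and the G1 cyclins *CLN1* (0.34 ± 0.23) and *CLN2* (0.30 ± 0.20) were higher (10.7%, against 2.43% over all genes) and 0 were lower. Without the replicate 1, 2 or 3 pair, 3, 5 and 6 were higher. With the block 7 of 49 cell wall genes were higher (14.3%, against 2.43% over all genes) and 1 was lower, with the higher ones including *SCW4* (0.40 ± 0.19), *UTR2* (0.39 ± 0.22) and *TIR4* (0.62 ± 0.18). Without the replicate 2 pair, 9 were higher and 8 lower, and without the replicate 1 pair 4 were higher and 1 lower.

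Genes of mitochondrial import and protein folding showed little change. Of 40 import genes, 0 passed without the block, where 1 was lower and 1 higher at an unadjusted p under 0.05, and DESeq2 called 1. With the block *MIM2*, a subunit of the outer membrane insertase, was lower and *PAM18*, a J-protein of the import motor, was higher (0.33 ± 0.14). Each was 2.5% of the list, near the 3.53% lower and 2.43% higher over all genes. Without the replicate 2 pair, 4 were higher, and without the replicate 3 pair 0 were. Of 18 matrix chaperones and proteases, none passed with or without the block or by DESeq2, and 1 was lower and 0 higher at an unadjusted p under 0.05 without the block. *SSC1*, the matrix Hsp70 for which Mge1 is the exchange factor, had 2779, 2683 and 2685 CPM in *pdr3*Δ cells and 2729.9, 2838 and 2636 CPM in wild-type cells (-0.01 ± 0.10), and the protease *PIM1* had 416, 427 and 395 CPM in *pdr3*Δ cells and 421, 427 and 400.4 CPM in wild-type cells (-0.01 ± 0.09). Both pairs of groups overlapped. *MSP1*, the extracting ATPase, had 103, 106 and 77.3 CPM in *pdr3*Δ cells and 116, 126 and 86.4 CPM in wild-type cells (-0.20 ± 0.17), whereas its recruiter *CIS1* had 1.06, 1.12 and 0.261 CPM in *pdr3*Δ cells, against 133, 134.55 and 153 CPM in wild-type cells (-7.43 ± 0.28).

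**Figure D3:**
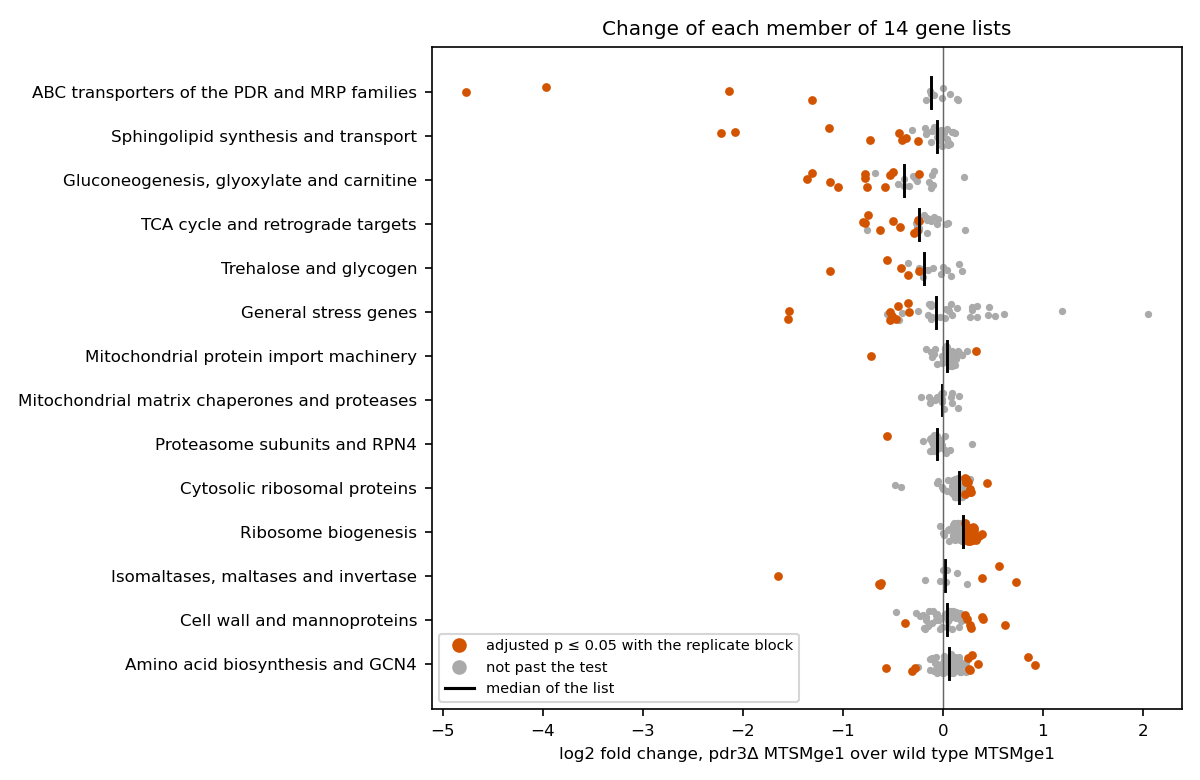
Log2 fold change of *pdr3*Δ over wild-type cells for each tested member of 14 gene lists, orange where the adjusted p was 0.05 or less with the block, with black bars at the list medians. The medians run between -0.39 for gluconeogenesis and 0.20 for ribosome biogenesis, and the ABC transporters hold 4 members far from a median of -0.12.

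The octamers seen in the pumps recurred in the promoters of lower genes. TCCGCGGA, which reads the same on both strands, TCCGTGGA, TCCGAGGA and TCCGCGCA were searched on both strands within 600 bases before the start codon. Over 5802 tested genes with such a window, 3.6% held at least 1 of them. The share was 70.6% of the 34 genes of the study's list, 40% of the 10 genes outside it lower without the block and 10.1% of 179 genes outside it lower with the block, which include those 10. Some sites count for genes on both sides of them. The octamers of YGR161W-C, *CAP1* and *MIM2*, outside the list, are also those of their neighbours *RTS3*, *LAC1* and *ICT1* in it. It was 5.41% of 148 genes higher with the block. TCCGCGGA was in 0 of these 148 windows and in 42 over all genes tested (0.724%). Of these 42 genes, 16 were lower without the block and 23 with it (54.8%), and 0 were higher. For TCCGTGGA, 12 and 18 of 76 genes were lower (23.7% with the block), for TCCGAGGA 1 and 2 of 60, and for TCCGCGCA 2 and 3 of 40. With the block, 2 of the TCCGTGGA genes, 4 of the TCCGAGGA genes and 2 of the TCCGCGCA genes were higher. For TCCGAGGA the share higher was 6.67%, above the 3.33% lower. A match of letters is a description and not evidence of a binding site.

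The octamers of 6 genes outside the study's list are shown because the genes were lower and their products lie outside drug efflux.
IPT1: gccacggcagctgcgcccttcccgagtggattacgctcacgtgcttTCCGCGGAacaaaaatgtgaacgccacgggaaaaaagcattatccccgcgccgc
LPD1: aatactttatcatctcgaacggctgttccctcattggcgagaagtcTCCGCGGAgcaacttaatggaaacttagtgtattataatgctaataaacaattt
XBP1: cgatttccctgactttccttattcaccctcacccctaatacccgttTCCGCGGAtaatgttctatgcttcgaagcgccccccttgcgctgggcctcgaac
YGP1: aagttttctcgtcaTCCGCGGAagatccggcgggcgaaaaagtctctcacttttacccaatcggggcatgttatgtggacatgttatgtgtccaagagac
SPO24: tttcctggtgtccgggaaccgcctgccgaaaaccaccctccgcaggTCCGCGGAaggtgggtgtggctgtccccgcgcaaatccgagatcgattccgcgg
RPN4: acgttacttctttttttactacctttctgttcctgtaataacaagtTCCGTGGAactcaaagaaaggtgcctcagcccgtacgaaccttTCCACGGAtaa
They lie at chrIV:591744-591843 (- strand) for *IPT1*, chrVI:103261-103360 (- strand) for *LPD1*, chrIX:177645-177744 (- strand) for *XBP1*, chrXIV:335945-336044 (+ strand) for *YGP1*, chrXVI:645556-645655 (+ strand) for *SPO24* and chrIV:417097-417196 (- strand) for *RPN4*. *RPN4* has 2 octamers, the second read on the opposite strand, and the other 5 have 1. The windows of *YAT1*, *PCK1*, *RTG3*, *SFT2*, *FAA4* and *PHO80* held none of the 4 octamers.

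Some changed genes lie next to each other. *RTG3* and *SFT2* are divergent neighbours on chromosome II, with 561 bases between their coding regions, and both were lower without the block. *RTS3* and YGR161W-C, divergent on chromosome VII with 806 bases between them, were also both lower without the block and share an octamer. *LAC1* and *CAP1*, divergent with 750 bases between them, share another, and *CAP1* was lower only with the block (adjusted p = 0.036 by edgeR). *ICT1* and *MIM2* are divergent on chromosome XII with 396 bases between them, and share the octamer shown here from the side of *ICT1*, at chrXII:341061-341160 (- strand).
ICT1: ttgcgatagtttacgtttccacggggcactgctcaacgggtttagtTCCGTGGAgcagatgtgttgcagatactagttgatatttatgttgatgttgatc
*MIM2* had 19.3, 20.2 and 17.2 CPM in *pdr3*Δ cells and 35.2, 26.8 and 31.6 CPM in wild-type cells, without overlap (-0.72 ± 0.14, adjusted p = 0.0174 with the block and 0.112 without). *BDH2* and *BDH1*, neighbouring butanediol dehydrogenase genes in tandem on chromosome I, went opposite ways, with -2.05 ± 0.30 for *BDH2* and 0.34 ± 0.20 for *BDH1*. *BDH1* passed with the block and not without it. Next to 31 of the 32 genes lower by 2-fold lie 52 other tested genes with RefSeq positions, of which 6 were lower (11.5%, against 3.53% over all genes) and 5 were higher (9.62%, against 2.43%) with the block. Their median log2 fold change was -0.05.

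Several calls with the block were genes with few reads beside or identical to others. *YOL150C* had 0 counts in each *pdr3*Δ library, against 10, 24 and 23 counts in wild-type libraries, and YDR406W-A had 0, 3 and 2 counts in *pdr3*Δ libraries, against 24, 19 and 32 counts in wild-type libraries. By their systematic names they adjoin YOL151W, which is *GRE2*, and YDR406W, which is *PDR15*. YHR214C-D had 9, 4 and 0 counts in *pdr3*Δ cells and 54, 37 and 17 in wild-type cells, and *YAR069C* had the same numbers in every library. These are uncertain as separate genes.

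The same deletion under overexpression of Psd1, a mitochondrial inner membrane protein that clogs import, gave a second set of 6 libraries with no sample in common. Of the 10 genes lower outside the study's list, 10 had lower means under Psd1, 5 passed there without the block and 8 with it. *YAT1* had a log2 fold change of -1.30 ± 0.16 under MTSMge1 and -0.39 ± 0.14 under Psd1. For *PCK1* it was -1.13 ± 0.18 under MTSMge1 and -0.83 ± 0.25 under Psd1, and for *RTG3* -0.80 ± 0.08 under MTSMge1 and -0.53 ± 0.08 under Psd1. The 3 higher genes also had higher means under Psd1, and with the block 1 of them, *ARO9*, passed there (0.49 ± 0.17). Of the 184 genes lower with the block outside the list, which include these 10, 181 were tested under Psd1. Of these, 174 had lower means under Psd1 (96.1%, against 51.4% over all genes tested), and 83 passed with the block there (45.9%, against 4.98%). Of the 150 genes higher with the block, which include these 3, 143 had higher means (95.3%, against 48.6%) and 68 passed (45.3%, against 4.84%). Replicate numbers run across all groups of the series, so a shared effect of the number was not tested in these shares. Ribosome biogenesis had a median of 0.21 under Psd1, with 46 of 132 genes higher and 0 lower with the block, and gluconeogenesis a median of -0.15 with 6 of 25 lower and 0 higher.

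**Figure D4:**
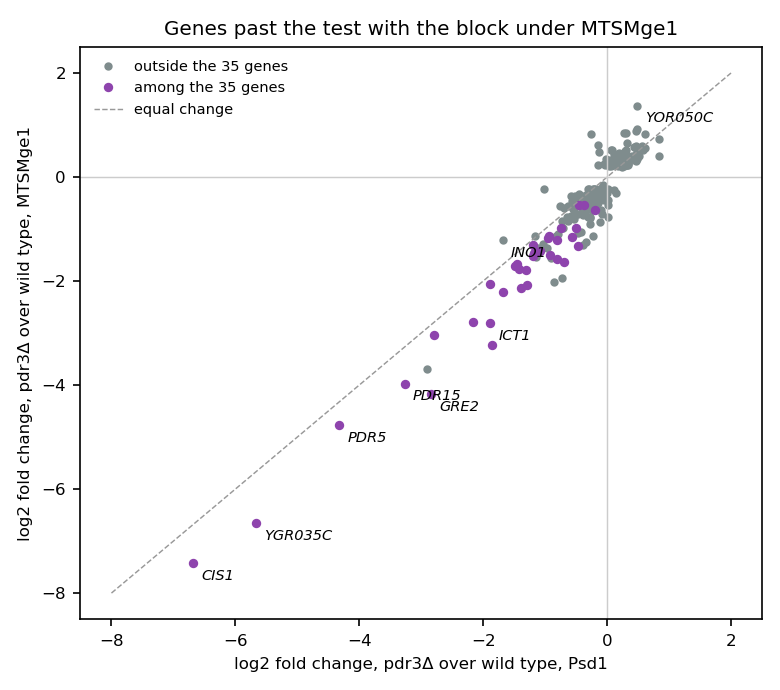
Log2 fold change of *pdr3*Δ over wild-type cells under Psd1 (horizontal) and under MTSMge1 (vertical) for the 365 genes that passed with the block under MTSMge1 and were tested under both. Purple points are the 34 genes of the study's list and grey points the other 331, and the dashed line marks equal change; *CIS1* and *YGR035C* lie at the lower end and most points stay in the quadrants of equal sign.

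The difference between the constructs was tested as an interaction on 12 libraries. *SFT2* was the only gene to pass without the block, 1 of 6236 tested (0.016%). Its log2 fold change was -1.07 ± 0.07 under MTSMge1 and -0.47 ± 0.06 under Psd1, a difference of -0.60 ± 0.08 with an adjusted p of 0.0453. The adjusted p ran between 0.0262 and 0.274 with 1 library left out at a time, and passed in 1 of those 12 fits. With the block 8 genes passed. These were *SFT2*, *ICT1* (-0.93 ± 0.12), *SCS7* (-0.79 ± 0.11), *YOR1* (-0.75 ± 0.11), *RPS22B* (-0.49 ± 0.08), *YHI9* (-0.85 ± 0.13), *PDR15* (-0.70 ± 0.11) and *GRE2* (-1.33 ± 0.22), all with a negative difference of MTSMge1 minus Psd1. *RPS22B* had a log2 fold change of -0.06 under MTSMge1 and 0.43 under Psd1, whereas the others were lower under both. For *YAT1* the difference was -0.91 ± 0.23, and for *RTG3* it was -0.27 ± 0.10, and neither passed.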

How the data were processed

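RNA was sequenced from 15 yeast cultures as stranded mRNA libraries with paired 59-base reads. The deposited table holds read counts per gene that the authors made with DRAGEN and the featureCounts function of Rsubread on the R64 genome. The strand setting of the counting and the handling of reads with several matches were not given in the sources used here, so genes with near-identical copies or overlapping partners are uncertain. The table has 0 columns of no known sample.

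Counts were tested with edgeR 4.0.16 (quasi-likelihood, TMM, its default filter on low counts) in R 4.3.3 with limma 3.58.1, over all genes with Benjamini-Hochberg adjustment, and calls had an adjusted p of 0.05 or less, with or without a fold of 2. DESeq2 1.42.0 was an alternative. Log2 fold changes are *pdr3*Δ over wild type with an SE from edgeR's fit without the block. That fit gives no SE of its own. The SE was worked back as the absolute log2 fold change over the square root of the F statistic, and is approximate for genes with few reads. The differences printed for interaction genes called with the block, and their SE, are of the block fit. P-values measure the spread between these cultures. Counts between 9128344 and 15326370 per library set the precision.

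Replicate numbers come from the labels, which do not say what a number shares. Deviations from the group means correlated between libraries of the same number with r of 0.232, 0.365 and 0.576, all over the minimum of 0.1, so both fits are given. The second *pdr3*Δ library also correlated with the first wild-type library (0.268), and the first *pdr3*Δ library with the second wild-type library (0.105). Numbers 1 and 2 were thus not clearly told apart.

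The members and gene lists were chosen with earlier results of these data known. Genes named were chosen from those called at 2-fold without the block, the 15 with the smallest p in each direction with it, called members and the most changed member of each list, all regulators, ABC transporters and markers, and the 5 leading interaction genes, and not every gene of these groups is printed. *HSP26*, *CTT1* and the genes that passed outside these groups were chosen after their values were seen. RefSeq gave positions for 6047 of the 7127 genes and all printed sequences. The test was also run on simulated counts that had the same spread for every gene and no effect of the replicate number. That run does not show how many false calls the block fit makes on these data.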

Additional observations from a re-analysis of the deposited data

Results flagged for a closer look

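The change of *SFT2* on loss of *PDR3* differed between constructs in the fit with all libraries, but not in most fits with 1 library left out. Its log2 fold change was -1.07 under MTSMge1 and -0.47 under Psd1, and the interaction was -0.595 with an adjusted p of 0.0453 by edgeR's quasi-likelihood test. By the same test, the adjusted p ran between 0.0262 and 0.274 with 1 library left out and was 0.176 with scaling by total library size. *SFT2* was lower in *pdr3*Δ cells than in wild-type cells in 3 of 3 pairs under MTSMge1. Whether levels of the construct or of *PDR3* move with the difference was not tested.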

How the results depend on the processing

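Of 55 genes called without the block or leading with it, 0 reversed direction under the alternatives to the fit without the block. Genes named without a call were not part of this count. DESeq2 called 67 genes lower and 8 higher in *pdr3*Δ cells, against 40 and 3 by edgeR, and all 5 groups in 1 fit gave 6 higher. The replicate block gave 49 genes lower by 2-fold, 218 lower and 150 higher. With single libraries left out, between 23 and 37 genes were lower by 2-fold, 0 and 1 higher by 2-fold, between 25 and 48 lower and between 1 and 4 higher. The lowest counts, 25 and 1, came without the first *pdr3*Δ library. With the block and a pair left out, between 47 and 66 were lower by 2-fold, between 2 and 12 higher by 2-fold, between 163 and 428 lower and between 68 and 455 higher. The alternatives to the block fit were chosen after seeing the data. DESeq2 with the block gave 0 genes higher by 2-fold, with 2 at an unadjusted p under 0.05, and gave 3037 of its genes no adjusted p. The interaction called 1 gene by edgeR, 12 by DESeq2, 8 with the replicate block, 0 with scaling by total library size (174 at an unadjusted p under 0.05) and between 0 and 4 with a library left out. The share lower among calls with the block was 59.2%, against 64.6% by total library size. The causes were not tested. Only 43 of the 55 genes were called without the block and had a call to lose. Of these 43, 17 lost the call without the first *pdr3*Δ library and 13 each without the first and without the second wild-type library.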

Other observations

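In the second *pdr3*Δ library, some genes stood far above the other 5 libraries. *GRE1*, a stress-induced hydrophilin, had 8.73, 89.2 and 7.65 CPM in *pdr3*Δ cells and 7.74, 9.72 and 7.79 CPM in wild-type cells. *YOR387C* had 18.8, 288 and 2.61 CPM in *pdr3*Δ cells and 5.27, 7.33 and 20.6 CPM in wild-type cells. Neither gene passed the edgeR test, and both were chosen after their values were seen.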
